A study of Mus musculus with 6 samples.

Results

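The 10 genes described here encode the 3 TGF-beta ligands (*Tgfb1*, *Tgfb2*, and *Tgfb3*), the receptors (*Tgfbr1*, *Tgfbr2*, and *Tgfbr3*), and 4 SMAD proteins (*Smad2*, *Smad3*, *Smad4*, and *Smad7*). They were taken by gene symbol from the 41345 transcript clusters of the array, where each of the 10 was measured by 1 transcript cluster with a single symbol. Hippocampal RNA came from 3 wild-type mice and 3 mice homozygous for the *App* allele NL-G-F that also lacked *Mutyh* (*Mutyh*-/-), called double-mutant mice in the text and NL-G-F•Mutyh on the plots, all female and 6 months old, perfused with saline, with 1 array per mouse. Double-mutant mice carry a humanized amyloid-beta sequence with the Swedish, Arctic, and Iberian mutations in both copies of the endogenous *App* gene, and lack *Mutyh*, which encodes a DNA glycosylase that removes adenine paired with 8-oxoguanine. Both parental lines had been backcrossed to C57BL/6J, and wild-type and double-mutant mice came from the same crosses and were then kept as separate strains. The wild-type mice carry neither change and *App* knock-in mice with intact *Mutyh* are not analysed here, so the parts of the 2 altered genes in a difference cannot be told apart. *Mutyh* is absent from every cell of these mice, and whole hippocampus was profiled, so the values belong to no cell type.

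TGF-beta ligands are secreted in a latent form and are freed at the cell surface, largely by integrins that contain the alpha-v chain. The active ligand binds the type II receptor TGFBR2, which then phosphorylates the type I receptor TGFBR1. TGFBR1 in turn phosphorylates SMAD2 and SMAD3, and these enter the nucleus with SMAD4 to control transcription. SMAD7 is induced by the signal and blocks it at the receptor. In brain, TGF-beta signalling through TGFBR2 is needed for microglia to keep their homeostatic state.

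All signals are log2 values as deposited, and a transcript cluster was tested when its mean reached an intensity of 50 (5.64 on the log2 scale) in at least 1 group. All 10 members were tested, with wild-type means between 6.71 and 9.50. Of the 21159 transcript clusters tested, 13 passed limma's test at an adjusted *p* under 0.05 (0.0614%), with 0.0567% higher and 0.00473% lower in double-mutant mice. At an unadjusted *p* under 0.05, 13.6% differed, 8.88% higher and 4.75% lower. After centring arrays on the median of all transcript clusters, the 1878 higher and 1005 lower (65.1% higher) became 1032 and 1598 (39.2% higher). With quantile normalization they became 1402 and 1380 (50.4% higher). Wild-type replicate 1 had the lowest median over all transcript clusters, 5.55 against 5.63 to 5.66 in the other arrays. Without this array and with the signals as deposited, 1854 were higher and 1171 lower. *Mutyh* was 5.28 ± 0.17 in wild-type and 5.42 ± 0.05 in double-mutant mice (mean ± SD, n = 3), below the intensity minimum, so its signal is no check of the knockout. All 11 measured markers of hippocampal neurons were above the intensity minimum. To the last deposited digit, each pair of double-mutant arrays shared between 1916 and 2123 values (4.63% to 5.13%), each pair of wild-type arrays between 34 and 47, and each pair across the groups at most 3. The wild-type arrays also belong to an earlier series, so genotype, series, and any processing by group cannot be told apart.

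No member passed limma's adjusted test in double-mutant against wild-type mice (adjusted *p* from 0.264 to 0.998). At an unadjusted *p* under 0.05, 1 member was higher (*Tgfbr1*) and 1 was lower (*Tgfb3*), 20% of the 10 against 13.6% of all transcript clusters. The arrays of the groups did not overlap for 6 members, 60% against 22.0% of all tested transcript clusters. In 5 of them (*Tgfb1*, *Tgfbr1*, *Tgfbr2*, *Smad3*, and *Smad4*) every double-mutant array lay above every wild-type array, which held for 13.9% of all transcript clusters. In *Tgfb3* every double-mutant array lay below, which held for 8.11%. Scaling changed this count. Centring arrays on the tested transcript clusters gave 4 higher and 1 lower, quantile normalization gave 3 and 1, and centring on all transcript clusters gave 1 and 1, where *Tgfbr1* and *Tgfb3* were the members left. The median difference of the 10 members was 0.06 on the log2 scale (0.01 with centring on all transcript clusters, 0.03 with quantile normalization, and 0.11 without wild-type replicate 3), and that of all tested transcript clusters was 0.02. An exact permutation of the 6 arrays has 10 splits and its smallest two-sided *p* is 0.1, which was reached by the 6 members without overlap and by no other.

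**Figure D1:**
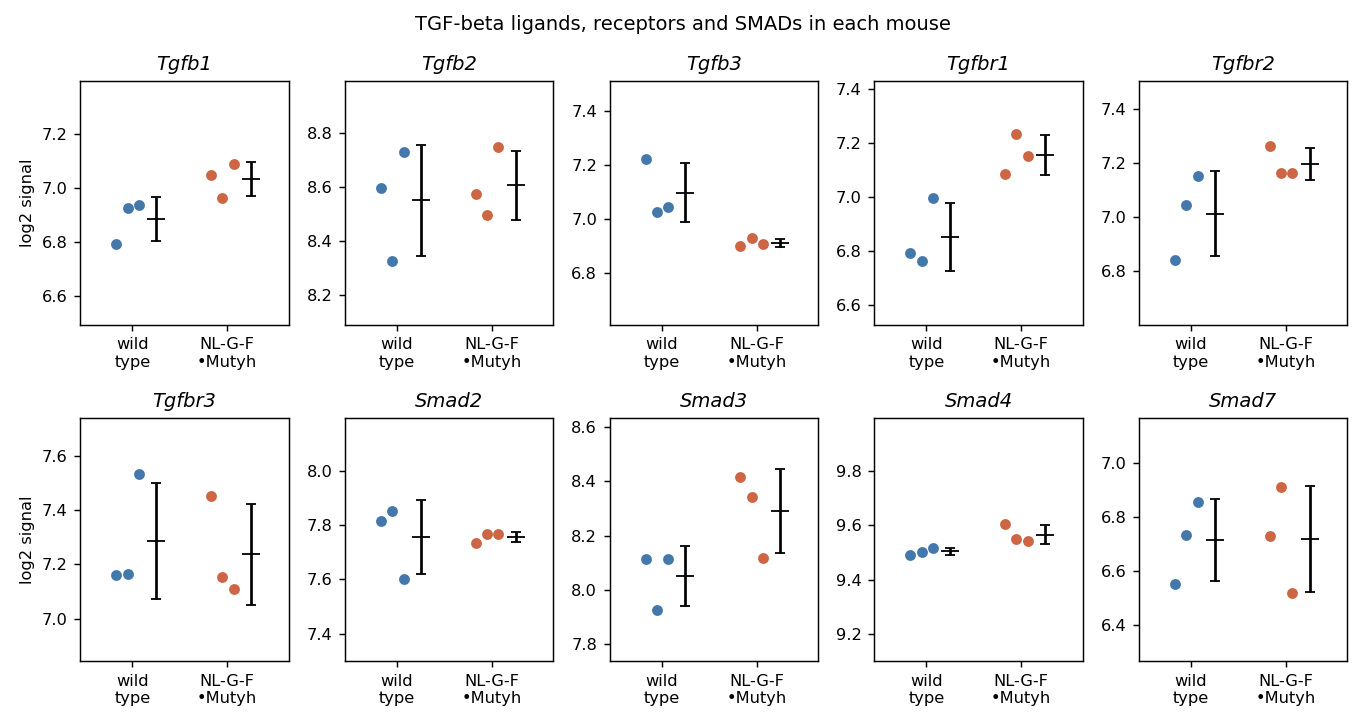
Log2 signal (vertical axis) of each of the 10 genes in the 3 wild-type (blue) and 3 double-mutant mice (orange), with 1 point per mouse in the order of replicates 1 to 3 and the mean ± SD beside them; vertical axes differ between genes. The groups are apart in *Tgfb1*, *Tgfb3*, *Tgfbr1*, *Tgfbr2*, *Smad3*, and *Smad4*, and overlap in the other 4 genes.

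The bases upstream of the start site are shown for 4 of the members whose double-mutant arrays all lay above the wild-type arrays. The sequences are RefSeq's, build GRCm38.p6, and 5 of the 10 members matched the promoter table. Each line holds the 250 bases before the start site, 5′ to 3′ on the gene's strand, and for *Tgfbr1* those of the first of its 2 listed start sites. Capitals mark matches on either strand to the GC box (GGGCGG), the CCAAT box (CCAAT), and the SMAD box (CAGAC). The regions are chr4:47352972-47353221 on the + strand for *Tgfbr1*, chr9:63757995-63758244 on the − strand for *Smad3*, chr9:116175364-116175613 on the − strand for *Tgfbr2*, and chr7:25686752-25687001 on the + strand for *Tgfb1*.
Tgfbr1: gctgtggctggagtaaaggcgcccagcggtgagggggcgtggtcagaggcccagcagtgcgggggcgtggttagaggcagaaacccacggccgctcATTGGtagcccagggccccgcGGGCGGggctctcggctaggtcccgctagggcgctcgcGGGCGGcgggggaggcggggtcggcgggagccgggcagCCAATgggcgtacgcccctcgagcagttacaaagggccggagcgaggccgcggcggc
Smad3: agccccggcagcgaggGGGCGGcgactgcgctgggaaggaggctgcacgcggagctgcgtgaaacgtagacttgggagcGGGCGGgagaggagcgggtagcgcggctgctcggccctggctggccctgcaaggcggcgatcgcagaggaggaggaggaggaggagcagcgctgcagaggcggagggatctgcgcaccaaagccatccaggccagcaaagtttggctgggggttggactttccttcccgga
Tgfbr2: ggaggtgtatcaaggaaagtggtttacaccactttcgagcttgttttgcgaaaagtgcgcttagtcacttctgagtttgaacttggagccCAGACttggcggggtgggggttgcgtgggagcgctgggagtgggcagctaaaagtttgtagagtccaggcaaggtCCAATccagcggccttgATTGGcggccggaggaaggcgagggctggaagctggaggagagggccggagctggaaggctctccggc
Tgfb1: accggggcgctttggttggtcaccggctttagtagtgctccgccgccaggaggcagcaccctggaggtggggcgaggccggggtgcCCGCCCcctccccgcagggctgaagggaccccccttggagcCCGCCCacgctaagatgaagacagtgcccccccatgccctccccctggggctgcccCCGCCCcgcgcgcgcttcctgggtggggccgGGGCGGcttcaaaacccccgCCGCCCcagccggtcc

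*Tgfb1* held 5 GC boxes and *Tgfbr1* and *Smad3* held 2 each, while *Tgfbr2* held none. G and C made up 75.2% of the bases in *Tgfb1*, 74.8% in *Tgfbr1*, 69.2% in *Smad3*, and 58.4% in *Tgfbr2*. *Tgfbr1* and *Tgfbr2* held 2 CCAAT boxes each, and *Tgfbr2* held the 1 SMAD box found in the 4 sequences. None of the 4 held a TATA box (TATAAA). Over all 32851 promoters of the same length, a GC box was found in 32.7%, a CCAAT box in 33.8%, a SMAD box in 42.2%, and a TATA box in 12.4%. No match shown shares a base with another, and a match is a description of the sequence only.

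Of the ligands, *Tgfb1*, encoding the isoform made in brain mainly by microglia, was 6.79, 6.93, and 6.94 in wild-type and 7.05, 6.96, and 7.09 in double-mutant mice. The groups were apart by 0.03. In bulk tissue, the number of cells of a type and the amount of a transcript per cell cannot be told apart, here and in the results that follow. The means were 6.89 ± 0.08 and 7.03 ± 0.06 (SD, n = 3), a difference of 0.15 (standard error 0.08, 95% interval −0.03 to 0.33, limma, adjusted *p* = 0.427), or 111% wild type. Without wild-type replicate 1, its lowest array, the difference was 0.10. *Tgfb2*, whose product needs betaglycan to bind TGFBR2 well, was 8.60, 8.33, and 8.73 in wild-type and 8.57, 8.50, and 8.75 in double-mutant mice. Its groups overlapped over most of their range. The difference was 0.06 (standard error 0.12, 95% interval −0.24 to 0.35, limma, adjusted *p* = 0.870), and it turned to −0.06 without wild-type replicate 2 and to −0.01 without double-mutant replicate 3.

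*Tgfb3*, the third ligand gene, was 7.22, 7.03, and 7.05 in wild-type and 6.90, 6.93, and 6.91 in double-mutant mice. Its 3 double-mutant arrays were close to each other (SD 0.02), and the highest of them lay 0.09 below the lowest wild-type array. The means were 7.10 ± 0.11 and 6.91 ± 0.02 (SD, n = 3), or 88.0% wild type. The difference was −0.18 (standard error 0.08, 95% interval −0.37 to −0.0005, limma, adjusted *p* = 0.366, unadjusted *p* = 0.0496). Wild-type replicate 1 stood highest, and without it the difference was −0.12 with the groups still apart. Over 16 alternatives it ran from −0.23 to −0.12, with an unadjusted *p* under 0.05 in 6. The difference between the 3 ligands was not tested.

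Of the receptors, *Tgfbr1*, encoding the type I receptor kinase that phosphorylates SMAD2 and SMAD3, had the smallest *p* of the 10 members. Its signal was 6.80, 6.76, and 7.00 in wild-type mice and 7.09, 7.23, and 7.15 in double-mutant mice. The lowest double-mutant array lay 0.09 above the highest wild-type array. The means were 6.85 ± 0.13 and 7.16 ± 0.07 (SD, n = 3), so that the log2 difference was 0.30 and the level 123% wild type (standard error 0.09, 95% interval 0.09 to 0.51, limma, adjusted *p* = 0.264, unadjusted *p* = 0.0114). Its difference ran from 0.25 to 0.38 over 16 alternatives, each with an unadjusted *p* under 0.05 and none with an adjusted one (lowest adjusted *p* = 0.110).

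*Tgfbr2*, encoding the type II receptor that binds the ligand first, was 6.84, 7.04, and 7.15 in wild-type and 7.26, 7.16, and 7.16 in double-mutant mice. The groups were apart by 0.01 only, and the last 2 values were equal to the last digit. The difference was 0.18 (standard error 0.10, 95% interval −0.04 to 0.41, limma, adjusted *p* = 0.440), or 114% wild type. Without wild-type replicate 1, the lowest array, it was 0.10. The summed intensity of 10 choroid plexus markers was also lowest in that array (3780, against 12500 and 15500 in the other wild-type mice and 6960 to 14200 in double-mutant mice), and its part in the *Tgfbr2* values was not tested. *Tgfbr3*, encoding betaglycan, a co-receptor that presents the ligand to TGFBR2, was 7.16, 7.16, and 7.53 in wild-type and 7.45, 7.15, and 7.11 in double-mutant mice. Each group thus held 1 array well above its other 2, and the ranges overlapped. The difference was −0.05 (standard error 0.14, 95% interval −0.38 to 0.28, limma, adjusted *p* = 0.908), and it became 0.08 without wild-type replicate 3 and 0.02 without double-mutant replicate 3.

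Of the SMADs that receptors phosphorylate, *Smad3* was 8.11, 7.92, and 8.11 in wild-type and 8.42, 8.34, and 8.12 in double-mutant mice. Double-mutant replicates 1 and 2 lay well above the wild-type arrays, and replicate 3 lay 0.004 above the highest of them. The means were 8.05 ± 0.11 and 8.29 ± 0.15 (SD, n = 3), or 118% wild type, a difference of 0.24 (standard error 0.10, 95% interval −0.004 to 0.49, limma, adjusted *p* = 0.372). Without double-mutant replicate 3 it was 0.33. The summed intensity of 11 markers of hippocampal neurons was 5670 to 5940 in wild-type and 7190, 6950, and 5910 in double-mutant mice, so it too was high in double-mutant replicates 1 and 2 and within the wild-type range in replicate 3. The markers did not all move this way, as 9 of the 11 lay above wild type and 2 below (*Mpped1*, −0.48, and *Fibcd1*, −0.14). *Mpped1* was 7.87, 8.11, and 8.31 in double-mutant mice, lowest where the sum was highest. The part of the summed markers in the *Smad3* values was not tested. *Smad2* was 7.82, 7.85, and 7.60 in wild-type and 7.74, 7.77, and 7.77 in double-mutant mice. Its double-mutant arrays lay inside the wild-type range, and its difference of 0.0006 (standard error 0.09, 95% interval −0.20 to 0.20, limma, adjusted *p* = 0.998) had no stable sign. Whether *Smad3* and *Smad2* differed from each other in this comparison was not tested.

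*Smad4*, encoding the common partner of the other SMADs, had the narrowest spread of the members in wild-type mice (9.49, 9.50, and 9.52, SD 0.01). In double-mutant mice it was 9.61, 9.55, and 9.54. The groups were apart, but by 0.02, and the difference was 0.06 (standard error 0.06, 95% interval −0.09 to 0.21, limma, adjusted *p* = 0.682), or 104% wild type. It was 0.03 with quantile normalization and 0.01 with centring on all transcript clusters. *Smad7*, the inhibitory SMAD that the pathway itself induces, was 6.55, 6.73, and 6.85 in wild-type and 6.73, 6.91, and 6.52 in double-mutant mice. Both groups spread over about the same range. The difference was 0.005 (standard error 0.13, 95% interval −0.29 to 0.30, limma, adjusted *p* = 0.989), and like that of *Smad2* it turned negative with quantile normalization, with either centring, and without some single arrays.

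**Figure D2:**
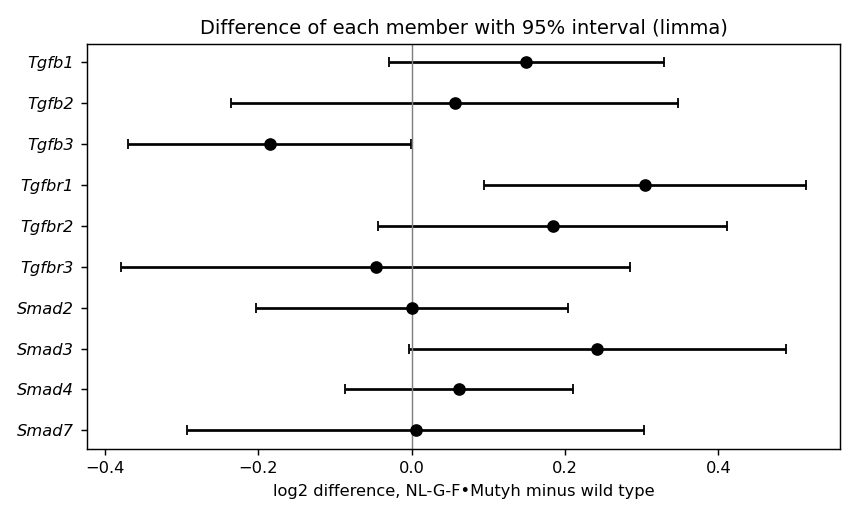
Log2 difference of each of the 10 genes (horizontal axis, double-mutant minus wild type, n = 3 mice per group) with limma's 95% interval as bars. The interval of *Tgfbr1* (0.09 to 0.51) lies above 0, that of *Tgfb3* ends just below 0, and those of the other 8 include 0.

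Of 20 measured genes that hold TGF-beta latent or free it, 16 were tested, none passed the adjusted test, 1 was higher at an unadjusted *p* under 0.05, and none was lower. The 1 gene, *Itgb3*, reached the intensity minimum in double-mutant mice alone, so a higher value was a condition of its being tested and the count supports nothing. The differences of the 16 ran from −0.66 to 0.26 with a median of 0.01, which ran from −0.05 to 0.16 with 1 array left out. *Itgb3*, encoding an integrin chain that pairs with alpha-v, was 5.50 in wild-type and 5.76 in double-mutant mice (difference 0.26, standard error 0.11, limma, adjusted *p* = 0.354). *Ltbp4*, encoding a latent TGF-beta binding protein, was lower in all 3 double-mutant mice (difference −0.13, adjusted *p* = 0.431), and the integrin gene *Itgb5* differed by 0.17 (adjusted *p* = 0.432). The main activating integrin of glia is made of the products of *Itgav* (difference 0.01) and *Itgb8* (0.09). *Nrros*, which tethers latent TGF-beta on microglia, was below the intensity minimum in both groups. *Dcn*, encoding the ligand-binding proteoglycan decorin, lay farthest below (−0.66), but its arrays ran from 8.78 to 9.54 in wild-type and from 7.85 to 9.50 in double-mutant mice and overlapped. *Dcn* also marks fibroblasts and meninges, whose 12 markers summed to intensities of 4070 to 6960 in wild-type and 4630 to 5470 in double-mutant mice. Their part in the *Dcn* values was not tested.

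The activin branch held the lowest *p* values of the pathway. *Inhba*, encoding the chain of activin A, which signals through SMAD2 and SMAD3, was 6.17, 6.34, and 6.59 in wild-type and 7.08, 7.36, and 6.96 in double-mutant mice. All 3 double-mutant mice lay well above the wild-type mice, with 170% wild type and a difference of 0.76 (standard error 0.14, limma, adjusted *p* = 0.179, unadjusted *p* = 0.00119). *Inhba* is also known as a gene that neuronal activity induces. *Acvr1c*, encoding the activin and nodal receptor ALK7, was 6.78, 6.83, and 6.76 in wild-type and 7.09, 7.12, and 7.19 in double-mutant mice. Its 2 groups were narrow and apart, with a difference of 0.34 (standard error 0.07, limma, adjusted *p* = 0.181). Of the other activin receptor genes the differences were −0.10 for *Acvr1b*, −0.06 for *Acvr2a*, and 0.06 for *Acvr2b*.

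The list of activin and BMP ligand genes had 12 tested genes, with the protease gene *Bmp1* counted among them. Of the 12, 1 was higher and 1 lower at an unadjusted *p* under 0.05, 16.7% against 13.6% of all transcript clusters. None passed the adjusted test. The median difference was −0.04 and ran from −0.08 to 0.04 with 1 array left out. *Bmp3*, encoding an atypical BMP that opposes the others, ran from 6.26 to 7.08 in wild-type and from 5.93 to 6.45 in double-mutant mice, with overlap (difference −0.60, standard error 0.23, limma, adjusted *p* = 0.343). The difference was −0.83 without wild-type replicate 3 and −0.42 without wild-type replicate 1. *Bmp1*, which despite its name encodes a protease that cleaves procollagens, differed by 0.26 (adjusted *p* = 0.400). Of 13 tested receptor and co-receptor genes, 2 were higher and none lower at an unadjusted *p* under 0.05, 15.4% against the same 13.6% (median 0.06). Besides *Acvr1c* this was *Acvr1*, encoding the BMP type I receptor ALK2, with a difference of 0.20 (standard error 0.08, adjusted *p* = 0.346). *Cd109*, counted in this list though it encodes a co-receptor of TGF-beta, differed by 0.36 (standard error 0.18, adjusted *p* = 0.415), with overlap between the groups. Without double-mutant replicate 1 its difference was 0.18, and its double-mutant replicates 2 and 3 were equal to the last digit. The BMP-activated *Smad5* (−0.14, adjusted *p* = 0.425), *Smad9* (−0.15), and *Smad1* (−0.01) lay at or below the wild-type level, and none of the 3 had an unadjusted *p* under 0.05.

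Of the secreted antagonists, *Chrdl1*, encoding the BMP-binding chordin-like 1 of astrocytes, was 6.35, 6.36, and 6.34 in wild-type and 5.51, 5.88, and 5.97 in double-mutant mice. The wild-type mice were nearly equal (SD 0.01) and all 3 double-mutant mice lay below them. The difference was −0.56 (standard error 0.12, 67.7% wild type, limma, adjusted *p* = 0.187, unadjusted *p* = 0.00289). *Fstl3*, encoding an activin-binding protein of the follistatin family, was 6.35, 6.05, and 6.03 in wild-type and 6.50, 6.42, and 6.38 in double-mutant mice (difference 0.29, standard error 0.10, adjusted *p* = 0.313). *Fst*, encoding follistatin itself, differed by 0.17 (adjusted *p* = 0.381) with the groups apart. Of the 10 antagonist genes tested, 1 was higher and 1 lower at an unadjusted *p* under 0.05, 20% against 13.6% of all transcript clusters. The median was −0.03, and it turned to 0.02 without double-mutant replicate 2.

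**Figure D3:**
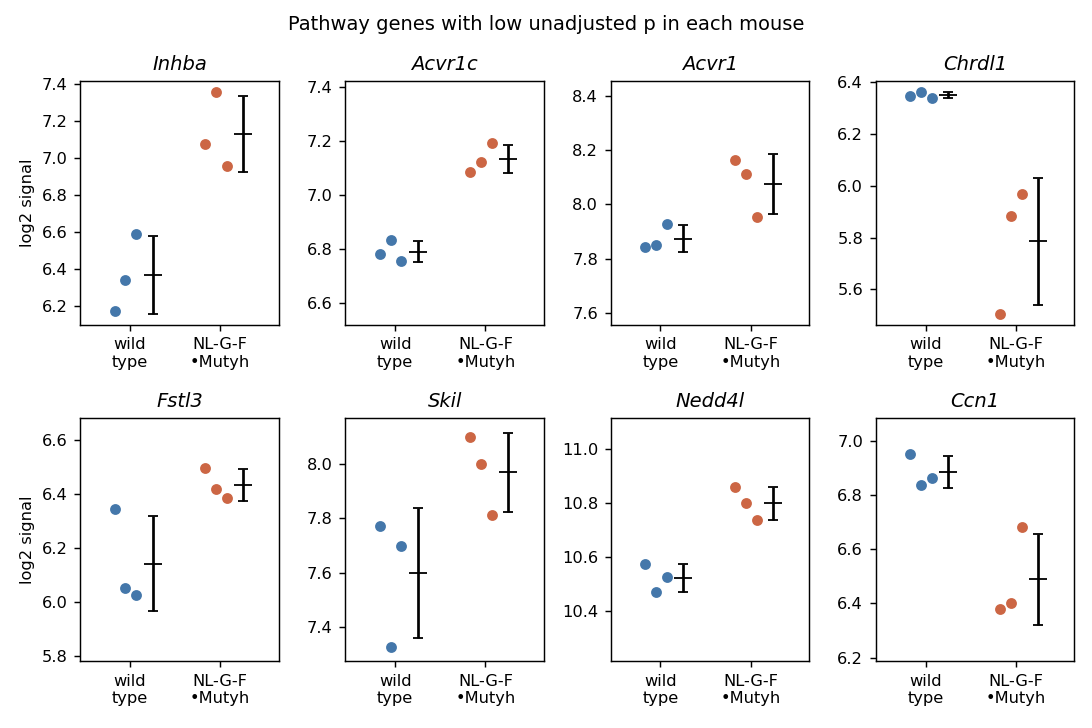
Log2 signal (vertical axis) of 8 genes of the wider pathway, picked among those with an unadjusted *p* under 0.05, in each of the 3 wild-type (blue) and 3 double-mutant mice (orange), with the mean ± SD beside the points; vertical axes differ between genes. *Inhba*, *Acvr1c*, *Acvr1*, *Fstl3*, *Skil*, and *Nedd4l* are higher in every double-mutant mouse and *Chrdl1* and *Ccn1* lower, and none passed the adjusted test.

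Of 23 tested SMAD partners and regulators, 2 were higher and none lower at an unadjusted *p* under 0.05, 8.70% against 13.6% of all transcript clusters, with a median of 0.05. *Nedd4l*, encoding a ubiquitin ligase that turns over phosphorylated SMAD2 and SMAD3, was 10.57, 10.47, and 10.53 in wild-type and 10.86, 10.80, and 10.74 in double-mutant mice (difference 0.28, standard error 0.07, limma, adjusted *p* = 0.219). *Skil*, encoding the SMAD co-repressor SnoN and itself a target of the pathway, was 7.77, 7.33, and 7.70 in wild-type and 8.10, 8.00, and 7.81 in double-mutant mice (0.37, standard error 0.14, adjusted *p* = 0.328). Both were apart from wild type in every mouse. *Strap*, encoding an adaptor that binds TGF-beta receptors, differed by 0.13 (adjusted *p* = 0.436). The co-repressor genes *Ski* (0.11), *Tgif1* (0.04), and *Tgif2* (0.11) also lay above wild type in every double-mutant array, which held for 13.9% of all transcript clusters. The ubiquitin ligase gene *Smurf1* (−0.08) lay below in every one, which held for 8.11%. Each had an unadjusted *p* over 0.05, and the gaps between the groups were 0.03, 0.0006, 0.03, and 0.02. *Tgif1*, *Tgif2*, and *Smurf1* each had 2 double-mutant values equal to the last digit.

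Among 28 tested target genes, 2 were higher and 1 lower at an unadjusted *p* under 0.05, 10.7% against 13.6% of all transcript clusters, and none passed the adjusted test. The median difference was 0.01. *Ccn1*, encoding a secreted matrix-associated protein, was 6.95, 6.84, and 6.86 in wild-type and 6.38, 6.40, and 6.68 in double-mutant mice, lower in every mouse (−0.40, standard error 0.10, limma, adjusted *p* = 0.219). Its close relative *Ccn2* differed by −0.19. *Hmox1*, encoding the heme-degrading enzyme heme oxygenase-1, differed by 0.25 (standard error 0.09, adjusted *p* = 0.304), and *Skil* is the third gene. The often-used readouts *Tgfbi* (0.05), *Id1* (−0.05), *Klf10* (0.01), and *Pmepa1* (0.03) had small differences, with arrays that overlapped between the groups. Of 15 tested mediators outside the SMAD route, 1 was higher and 1 lower, 13.3% against 13.6%. These were *Traf6*, encoding a ubiquitin ligase that links TGF-beta receptors to TAK1 (0.22, adjusted *p* = 0.285), and *Limk1*, encoding a kinase of the actin regulator cofilin (−0.27, adjusted *p* = 0.343). *Pard6a*, a polarity protein gene, differed by −0.24 (adjusted *p* = 0.382).

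Of 20 tested genes listed for a link to TGF-beta in microglia, 7 were higher and none lower at an unadjusted *p* under 0.05 (35%, against 13.6% of all transcript clusters). None passed the adjusted test. The median difference was 0.11, with 15 above wild type and 5 below, of which *Gas6* lay lowest (−0.26). In whole hippocampus the signals of the 20 cannot be assigned to microglia alone. *Csf1r*, whose product receives the survival signal of microglia, was 8.69, 8.66, and 8.68 in wild-type and 9.02, 9.04, and 8.92 in double-mutant mice (0.31, standard error 0.07, limma, adjusted *p* = 0.183). *Pros1*, encoding protein S, a bridge between phagocytes and their prey, differed by 0.37 (standard error 0.09, adjusted *p* = 0.203). The difference of *Siglech*, a microglial lectin gene, was 0.39 (standard error 0.10 and adjusted *p* = 0.222). The rest of the 7 were *Fcrls* (0.44, the largest difference of the list), *Gpr34* (0.39), *P2ry12* (0.31), and *P2ry13* (0.24). *Olfml3* (0.04), *Sall1* (0.08), and *Tmem119* (−0.12) of the same list were closer to wild type. Of the 17 measured markers of microglia, 16 lay above wild type, 14 of them with an unadjusted *p* under 0.05, 1 passed the adjusted test (*Ctss*, encoding the lysosomal protease cathepsin S, with a difference of 0.94), and all 17 were above the intensity minimum in 1 or both groups. *Ptprc* and *Laptm5*, both among the 14, reached it in double-mutant mice alone, so their higher value was a condition of their being tested. The summed intensity of the 17 markers was 4090 to 4470 in wild-type and 6190 to 6460 in double-mutant mice. The lists share 4 genes, and without them 5 of 16 remained higher (31.25%, against 13.6% of all transcript clusters) with the same median of 0.11. The genes left were listed as microglial too, so this count cannot set TGF-beta apart from the number of microglia. The part of the microglial markers in the *Tgfbr1*, *Tgfbr2*, and *Tgfb1* differences was not tested. The summed markers of astrocytes also stood apart (14800 to 15600 against 16400 to 16500), but with a median difference of 0.09. At an unadjusted *p* under 0.05, 2 of 14 were higher (14.3%, near the 13.6% of all transcript clusters). Among the astrocyte markers *Gfap* differed by 0.68, and *Aldh1l1* lay below wild type in every double-mutant array (−0.23). The sums of neurons, oligodendrocytes, and vessels overlapped between the groups. Of 11 oligodendrocyte markers, 8 lay below wild type, 3 of them at an unadjusted *p* under 0.05 (*Mog*, *Cnp*, and *Mbp*) and none above at that *p*. This was 27.3% against the same 13.6%. Of 15 tested endothelial and mural markers, 10 lay below wild type and 5 above. At an unadjusted *p* under 0.05, 1 was lower and none higher, 6.67% against 13.6% of all transcript clusters. This was the endothelial *Cldn5*, lower in every double-mutant array (−0.43, adjusted *p* = 0.274). As for *Aldh1l1*, this order held for 8.11% of all tested transcript clusters.

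**Figure D4:**
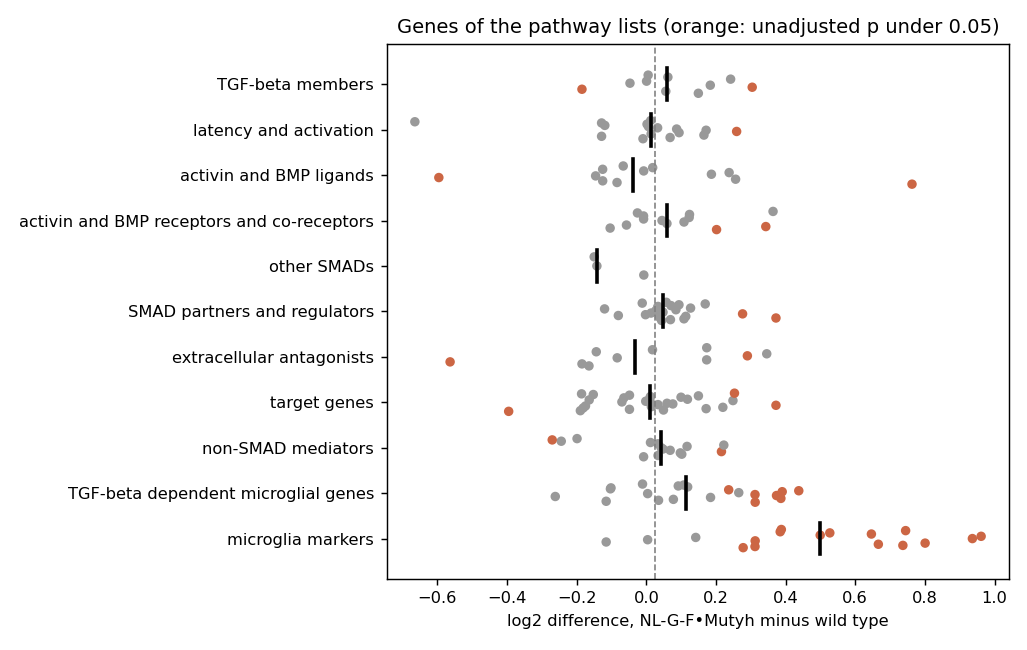
Log2 difference (horizontal axis, double-mutant minus wild type) of each tested gene (points) of the pathway lists and of the microglial markers, in orange where the unadjusted *p* was under 0.05, with the list's median as a black bar and the median of all tested transcript clusters (0.02) as a dashed line. The median of the microglial markers (0.50) lies far to the right of those of the pathway lists, which run from −0.14 to 0.11.

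The genes whose signals followed those of *Tgfbr1* and *Tgfb3* most closely over the 6 arrays were taken from 13987 tested rows with a single symbol. For *Tgfbr1* they were *Mllt3*, *Lpcat2*, *Arhgap27*, *Siah2*, and *Mir374b*, with correlations between 0.990 and 0.993 over the 6 arrays. *Siah2*, encoding a ubiquitin ligase, had the largest difference of them (0.46, limma, adjusted *p* = 0.181). For *Tgfb3* they were *Neurl1b*, *Dnajc16*, *Pea15a*, *Hes5*, and *Ndufa10*, with correlations between 0.990 and 0.996, and all 5 lay below wild type (−0.30 to −0.16). *Hes5*, a Notch target gene of neural stem cells and astrocytes, differed by −0.29 (adjusted *p* = 0.280). With 6 arrays in 2 groups and so many candidates, these values describe the arrays only and carry no test.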

How the data were processed

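Microarray analyses had been performed on GeneChip Mouse Gene 2.0 ST arrays, 1 per mouse. The authors processed the array files with Transcriptome Analysis Console 4.0 and deposited a log2 signal for each transcript cluster, and these values were taken unchanged. How signals were summarized and normalized, and on which genome build, is not given in the sources used here. Precision is limited by the number of arrays, and replicates are separate mice. Of 41345 transcript clusters, 23521 carried 1 gene symbol, 1820 several, and 16004 none, by the platform annotation.

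Groups were compared across all 21159 transcript clusters with a mean intensity of at least 50 in 1 or both groups, using limma 3.58.1 in R 4.3.3 with Benjamini-Hochberg adjustment over all of them. The threshold was an adjusted *p* of 0.05. Errors of differences are limma's moderated standard errors. A level in % wild type is the log2 difference turned into a ratio, as a percentage. The test was tried on simulated data with known differences, all of them larger than that of any member. The trial thus cannot show whether differences as small as those of the members would be found.

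The members and all gene lists were chosen with earlier results of these data known, so lists are given as counts and medians, with no test. Genes named besides the members are, per pathway list, those with the 3 smallest *p* values, per marker list those with the 2 smallest, and for *Tgfbr1* and *Tgfb3* the 5 most correlated genes; others were named after their values were seen. Of the marker genes so chosen, those with no bearing on a member are not described.

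Besides these choices, the comparison was run without the intensity minimum, with it required of both groups, and on single-symbol rows alone. Scaling was varied by quantile normalization and by centring arrays on all or on tested transcript clusters. The fit was varied by an intensity-dependent prior with robust estimation, weighted arrays, replicate numbers as a block, leaving out single arrays, and averaging the rows of a gene.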

Additional observations from a re-analysis of the deposited data

How the results depend on the processing

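No member passed limma's adjusted test under any of the 16 alternatives (lowest adjusted *p* = 0.110, *Tgfbr1* with array weights). The number of members higher at an unadjusted *p* under 0.05 was 1 or 2 and of those lower 0 or 1. *Tgfb1*, *Tgfbr1*, *Tgfbr2*, *Smad3*, and *Smad4* were higher and *Tgfb3* was lower in all 16. *Smad2* turned to −0.010 with quantile normalization, −0.049 and −0.0053 with centring on all or on tested transcript clusters, and −0.013 with array weights, and *Smad7* to −0.023, −0.044, and −0.00071 under the first 3 of these. With 1 array left out, *Smad2* ran from −0.077 to 0.049, *Smad7* from −0.090 to 0.11, *Tgfb2* from −0.056 to 0.15, *Tgfbr3* from −0.15 to 0.077, and *Smad1* from −0.038 to 0.029. The cause was not tested.

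Of all transcript clusters, 13 passed, against 8 with the minimum in both groups, 43 with single-symbol rows (fewer rows tested), 42 with array weights, and 2 or 3 with 1 array left out (fewer arrays). At an unadjusted *p* under 0.05, 1878 were higher and 1005 lower, against 3764 and 2112 with no intensity minimum, 1032 and 1598 with centring on all transcript clusters, 1556 lower with array weights, 1234 higher and 655 lower without double-mutant replicate 2, and 666 lower without wild-type replicate 2. With replicate numbers as a block, 2 transcript clusters and 0 members passed. Same-numbered arrays deviated with correlations of −0.10, 0.02, and −0.06, and 1 of 6 arrays correlated best with its own number. The numbers thus showed no pairing of mice, but so few arrays cannot exclude a shared litter or day.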

Other observations

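Over the tested transcript clusters the median SD was 0.12 in wild-type and 0.10 in double-mutant mice (log2 scale, n = 3), and 58.3% had the larger SD in wild-type mice. Of the 10 TGF-beta members, 7 had the larger SD in wild-type mice (median SD 0.132 against 0.0683). *Tgfbr2* and *Smad2* each had 1 value that was equal to the last digit in double-mutant replicates 2 and 3, and no member had equal values in 2 wild-type arrays.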
